A study of Mus musculus with 2 samples.

Results

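The genes described are the 9 mouse let-7 genes that lie outside the miR-99 clusters, out of 1973 microRNA (miRNA) genes counted. They are Mirlet7a-1, Mirlet7b, Mirlet7c-2, Mirlet7d, Mirlet7f-1, Mirlet7f-2, Mirlet7g, Mirlet7i and Mir98, and they were chosen by name. A further 3 let-7 genes, Mirlet7a-2, Mirlet7c-1 and Mirlet7e, sit beside genes of the miR-99 family and serve only for comparison. For 8 of the 9 genes the reads on the gene's own strand were used. Mirlet7f-1 was read from the strand opposite Gm24111, an annotated hairpin that covers the same bases on the other strand.

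Small RNA under 30 nt was sequenced from the neural tube, the embryonic forerunner of brain and spinal cord, of mouse embryos of strain B6NCrl at embryonic day 11.5. There was 1 group with 2 biological replicates and no treatment, second tissue or second stage. Each replicate was a pool of healthy male and female embryos, 109 in replicate 1 and 88 in replicate 2, so no single animal was measured. Levels are raw read counts per hairpin gene, also given as CPM, the count per 1000000 reads counted on miRNA genes of that library.

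let-7 was first found in Caenorhabditis elegans as a switch that moves tissues from larval to adult programmes. In mammals its members lower stem cell and growth factors such as Lin28, Hmga2 and Myc family transcripts, and they accumulate as neural progenitors stop dividing and differentiate. The RNA-binding protein LIN28 in turn holds let-7 precursors back before they are cut, so early embryos can transcribe let-7 hairpins and still carry little mature let-7. LIN28 binds the loop of the precursor, in part through the bases GGAG.

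The mature strands of the 5′ arm show what the genes share and where they differ. All of them are 22 nt long. They are printed 5′ to 3′ from RefSeq (GRCm38.p6), and capitals mark the seed, bases 2 to 8, which pairs with target mRNAs.
let-7a-5p, of Mirlet7a-1: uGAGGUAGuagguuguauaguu
let-7b-5p, of Mirlet7b: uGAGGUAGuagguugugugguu
let-7c-5p, of Mirlet7c-2: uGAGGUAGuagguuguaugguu
let-7d-5p, of Mirlet7d: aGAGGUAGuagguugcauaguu
let-7f-5p, of Mirlet7f-1 and Mirlet7f-2: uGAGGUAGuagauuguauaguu
let-7g-5p, of Mirlet7g: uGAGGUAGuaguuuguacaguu
let-7i-5p, of Mirlet7i: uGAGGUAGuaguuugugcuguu
miR-98-5p, of Mir98: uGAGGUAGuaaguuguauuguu
The 9 genes carry 8 distinct sequences of this arm with 1 seed. Positions are counted from 1 at the 5′ end, with the base of let-7a first. Relative to let-7a, let-7c has A19G, let-7f has G12A, let-7b has A17G and A19G, let-7g has G12U and U18C, miR-98 has G11A and A19U, and let-7d has U1A and U16C. let-7i is the farthest from let-7a, with 4 differences, G12U, A17G, U18C and A19U.

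A read that mapped to several places entered no gene count, so hairpins with the same mature strand can lack its reads. The 5′ strands of Mirlet7b, Mirlet7d, Mirlet7g, Mirlet7i and Mir98 were each found in 1 annotated hairpin of 1005 in the RefSeq table. let-7a-5p was found in 2 hairpins, Mirlet7a-1 and Mirlet7a-2. let-7c-5p was also found in 2, Mirlet7c-1 and Mirlet7c-2, and let-7f-5p in Mirlet7f-1 and Mirlet7f-2. Mirlet7a-1 and Mirlet7c-2 share the strand of the 3′ arm as well, printed here because it leaves neither gene an arm of its own.
let-7a-1-3p and let-7c-2-3p: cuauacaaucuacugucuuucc
Beyond the 5′ strand, the hairpins of Mirlet7f-1 and Mirlet7f-2 differ at the first base on its 3′ side, position 1 past its end. For Mirlet7a-1 against Mirlet7a-2, and for Mirlet7c-2 against Mirlet7c-1, the first difference lies 2 bases past the end. The 3′ strands of Mirlet7f-1 and Mirlet7f-2 are each in 1 hairpin.

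The neural tube libraries were dominated by Mirlet7g and Mirlet7i among these genes. Together the 9 genes held 77852 counts in replicate 1 and 66639 in replicate 2. That was 2.10% (95% Wilson interval 2.08 to 2.11) and 1.64% (1.63 to 1.66) of the 3708693 and 4055917 reads counted, or 1.87% ± 0.323 (SD, n = 2). Intervals cover counting error only. Mirlet7g and Mirlet7i made up 88.1% and 89.5% of the summed counts of the 9 genes. That sum leaves out reads mapped to several places and the let-7 genes of the miR-99 clusters. Of the latter, Mirlet7e had 14514 counts in replicate 1 and 10944 in replicate 2. The 5 genes whose 5′ strand is in 1 hairpin held 77030 and 65942 of these counts, and the 4 genes whose 5′ strand is in 2 hairpins held 822 and 697.

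**Figure D1:**
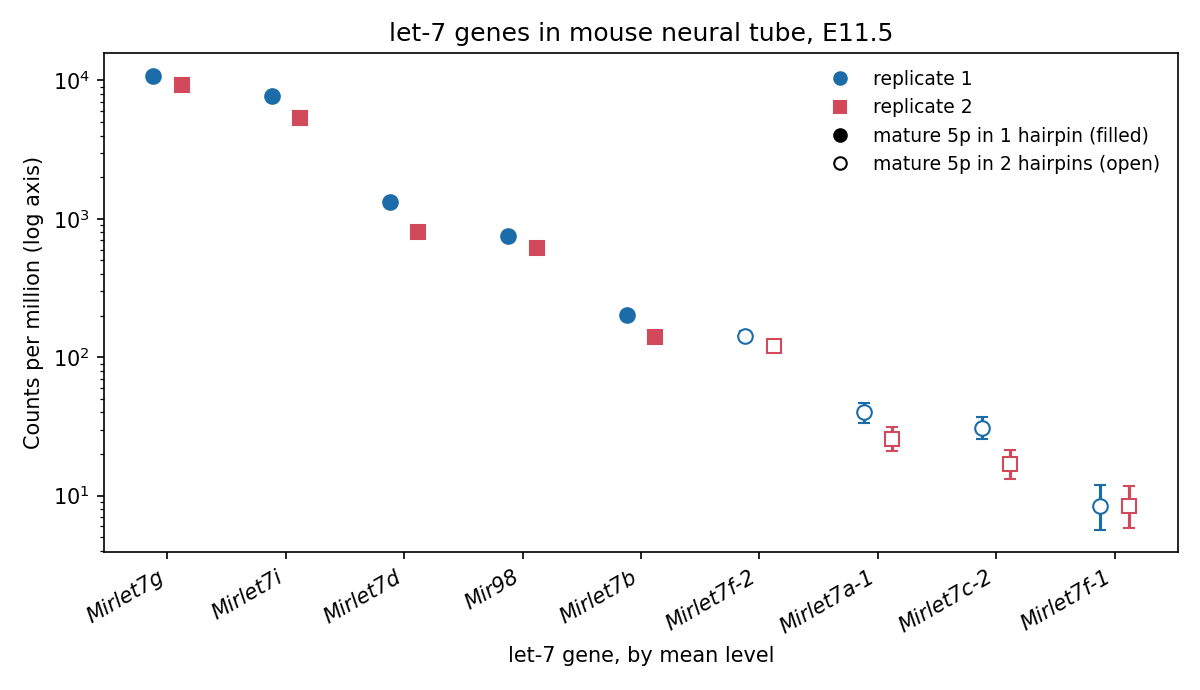
Level of each let-7 gene in CPM on a log axis, with replicate 1 as circles and replicate 2 as squares, and bars giving exact Poisson 95% intervals where they exceed the symbol. Filled symbols mark genes whose mature 5′ strand is in 1 annotated hairpin; all 4 genes with open symbols, at 142 CPM or less, share it with a second hairpin.

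Mirlet7g had 39730 counts in replicate 1 and 37839 in replicate 2, which is 10713 and 9329 CPM, or 10021 ± 978 CPM (SD, n = 2). It ranked 19 among all miRNA genes by mean level, between Mir23b at 10094 ± 2684 CPM and Mir214 at 9943 ± 2793 CPM, and it did not differ from either beyond their spread. The gene (ENSMUSG00000065440.1) lies on chromosome 9 from 106178840 to 106178927 (GRCm38, plus strand), in an intron of Wdr82, which encodes a subunit of a histone H3 methyltransferase complex.

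Mirlet7i had 28849 and 21770 counts, which is 7779 and 5367 CPM, or 6573 ± 1705 CPM (SD, n = 2), and ranked 32. Both libraries placed it below Mirlet7g, by 1.38-fold and 1.74-fold, and the ranges of the pair did not overlap. The 5′ strands of these leading genes differ from each other at 2 positions, A17G and A19U from let-7g to let-7i. Mirlet7i (ENSMUSG00000065406.2) lies on chromosome 10 from 122985640 to 122985724 on the minus strand and overlaps an exon of the transcribed pseudogene D630033A02Rik.

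Mirlet7d, Mirlet7a-1 and Mirlet7f-1 lie within one stretch of chromosome 13, minus strand, each overlapping an exon of the long noncoding RNA gene 6720427I07Rik. Mirlet7d (ENSMUSG00000065453.1, 48536012 to 48536114) had 4917 and 3272 counts, which is 1326 and 807 CPM. Mirlet7a-1 (ENSMUSG00000065421.2, 48538179 to 48538272) had 148 and 104 counts, which is 39.9 and 25.6 CPM. Mirlet7f-1 (48537829 to 48537917) had 31 and 34 counts, which is 8.36 and 8.38 CPM, and the own strand of Gm24111 had 0 counts in both libraries. Mirlet7f-1 lies between the others. Mirlet7d exceeded Mirlet7f-1, 1714 nt away, by 159-fold (exact 95% interval 112 to 234) in replicate 1 and 96.2-fold (68.7 to 139) in replicate 2. It exceeded Mirlet7a-1, 2064 nt away, by 33.2-fold (exact 95% interval 28.2 to 39.4) in replicate 1 and 31.5-fold (25.9 to 38.6) in replicate 2. Mirlet7d is the only one of the trio with a 5′ strand in 1 hairpin, and the part of these differences in counts that comes from reads mapped to several places was not tested.

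Mir98 and Mirlet7f-2 lie 785 nt apart on the X chromosome, both in an intron of Huwe1, a gene for a ubiquitin ligase that acts in neural progenitors. Mir98 (ENSMUSG00000065536.2, 151913214 to 151913321, plus strand) had 2786 and 2493 counts, which is 751 and 615 CPM. Mirlet7f-2 (ENSMUSG00000065602.1, 151912346 to 151912428, plus strand) had 528 and 490 counts, which is 142 and 121 CPM. The ratio of Mir98 to Mirlet7f-2 was 5.28 (4.81 to 5.80) in replicate 1 and 5.09 (4.62 to 5.62) in replicate 2, so the intervals overlapped. Mirlet7f-2 shares its 5′ strand with Mirlet7f-1, whereas Mir98 has its own. The part of the ratio that comes from reads mapped to several places was not tested. Mirlet7f-2 had more counts than Mirlet7f-1 by 17.0-fold (11.9 to 25.3) and 14.4-fold (10.2 to 21.1). Both encode let-7f-5p, and reads that mapped to both hairpins entered neither count, so the ratio does not describe that shared strand. Counts per hairpin do not tell the arms apart, and which arm the counted reads came from was not analysed here.

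Mirlet7b and Mirlet7c-2 lie 621 nt apart on chromosome 15, plus strand, and each overlaps an exon of the noncoding gene Lncppara. Mirlet7b (ENSMUSG00000065564.1, 85707319 to 85707403) had 748 and 568 counts, which is 202 and 140 CPM. Mirlet7c-2 (ENSMUSG00000065608.1, 85706603 to 85706697) had 115 and 69 counts, which is 31.0 and 17.0 CPM. Their ratio was 6.50 (5.34 to 7.99) in replicate 1 and 8.23 (6.40 to 10.7) in replicate 2, with overlapping intervals. Mirlet7c-2 shares the strands of both arms with other hairpins, and Mirlet7b shares neither. The part of this ratio that comes from reads mapped to several places was not tested. Mirlet7b was the lowest of the 5 genes with a 5′ strand of their own. let-7b-5p differs from let-7c-5p at 1 position, A17G, whereas the 5′ strands of Mirlet7g, Mirlet7i, Mirlet7d and Mir98 each differ by at least 2 from those of the other let-7 genes named here.

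From highest to lowest mean level the order was Mirlet7g, Mirlet7i, Mirlet7d, Mir98, Mirlet7b, Mirlet7f-2, Mirlet7a-1, Mirlet7c-2 and Mirlet7f-1. Both libraries gave this order. It is an order of counts per hairpin. The 4 lowest genes are those whose 5′ strand is in 2 hairpins, so their counts can lack reads that mapped to several places. How far this lowered their places was not tested. The ranges of neighbours over the libraries overlapped for Mirlet7b and Mirlet7f-2 and for Mirlet7a-1 and Mirlet7c-2, and these neighbours did not differ beyond their spread. With 2 libraries the smallest two-sided p that a permutation test between genes allows is 0.5, so none is given. Levels are compared without a length correction because the 5′ strands are equally long. How evenly the library preparation captured each sequence was not measured.

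The loops between the annotated arms of 8 of the genes were searched for GGAG, the bases that LIN28 is known to bind, on the RNA strand only. They are printed to show where the motif lies, in capitals.
Mirlet7g: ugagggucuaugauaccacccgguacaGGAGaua
Mirlet7i: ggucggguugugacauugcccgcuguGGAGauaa
Mirlet7d: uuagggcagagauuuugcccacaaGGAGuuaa
Mirlet7f-1: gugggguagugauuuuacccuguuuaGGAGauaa
Mirlet7f-2: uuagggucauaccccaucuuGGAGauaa
Mirlet7a-1: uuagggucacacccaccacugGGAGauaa
Mirlet7b: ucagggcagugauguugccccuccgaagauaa
Mirlet7c-2: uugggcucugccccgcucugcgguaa
The motif was in 6 of these 8 loops, just before the 3′ arm, against 52 of 641 hairpins with both arms annotated (8.11%). The 641 included these 8. The 8 loops come from related genes and are 26 to 34 nt long, and the share over all hairpins was not matched for loop length. Mirlet7b and Mirlet7c-2 lacked these letters. The 6 genes with the motif held 95.3% of the counts of all 9 genes in each library, and the 2 without it held 1.11% in replicate 1 and 0.956% in replicate 2. The remainder belongs to the gene whose loop is not reported here. The genes with the motif ranged from 8.36 CPM (Mirlet7f-1) to 10713 CPM (Mirlet7g) in replicate 1, and the 2 genes without it stood at 31.0 and 202 CPM. These ranges overlapped through genes whose 5′ strand is in 2 hairpins, so that their counts can lack reads. Among the searched genes with a 5′ strand of their own, Mirlet7g, Mirlet7i and Mirlet7d had the motif and stood at 1326 CPM or more in replicate 1. Mirlet7b, without it, stood at 202 CPM. Whether level and motif are related was not tested. A match describes the letters and does not show that LIN28 bound there.

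The libraries differed in how the summed counts of the 9 genes were divided among them. This measure does not depend on how the libraries are scaled. Mirlet7g took 51.0% (95% Wilson interval 50.7 to 51.4) of the summed counts in replicate 1 and 56.8% (56.4 to 57.2) in replicate 2. Mirlet7i took 37.1% (36.7 to 37.4) and 32.7% (32.3 to 33.0). Mirlet7d took 6.32% (6.15 to 6.49) and 4.91% (4.75 to 5.08). For each of these 3 genes the intervals were apart, so the difference exceeded counting error. Mir98 took 3.58% (3.45 to 3.71) and 3.74% (3.60 to 3.89), with overlapping intervals. The remaining 5 genes each took 0.961% or less, and their intervals overlapped between the libraries. Mirlet7c-2, for example, took 0.148% (0.123 to 0.177) and 0.104% (0.0818 to 0.131).

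**Figure D2:**
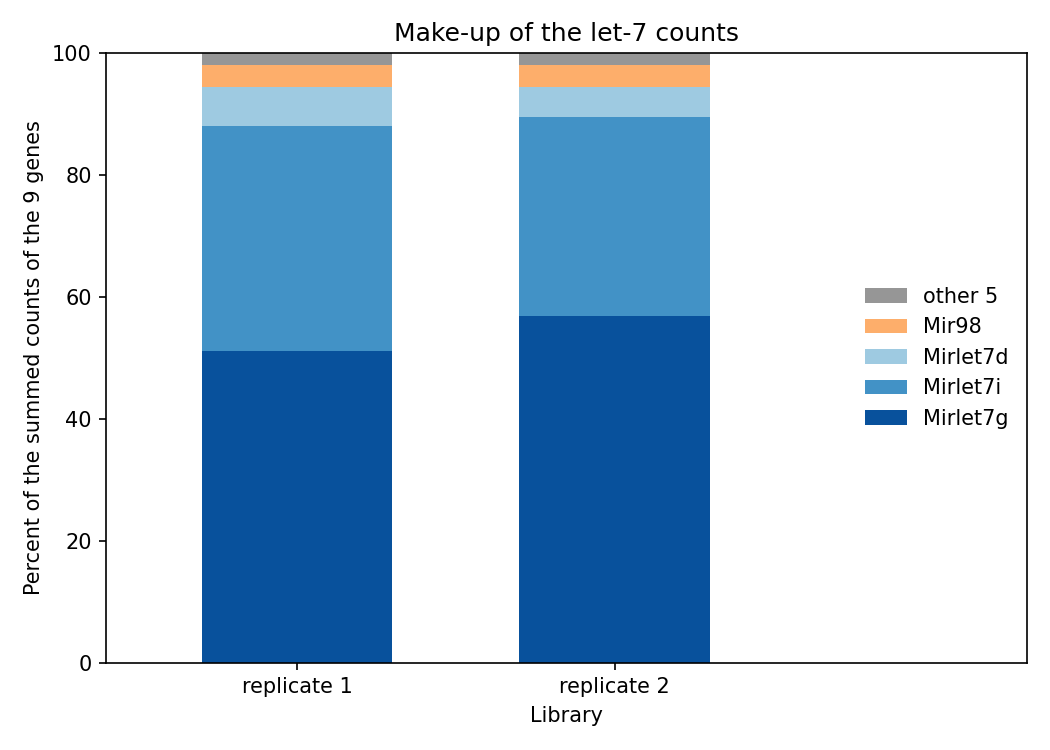
Percent of the summed counts of the 9 let-7 genes held by each gene, stacked, in replicate 1 and replicate 2, with the 5 lowest genes joined. Mirlet7g filled 51.0% in replicate 1 and 56.8% in replicate 2, and Mirlet7i 37.1% and 32.7%.

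Set against the reads of each library, 8 of the 9 genes were higher in replicate 1. The test was the exact binomial, two-sided, with Benjamini-Hochberg adjusted p over the 445 miRNA genes that had at least 10 summed counts. Of all genes tested, 45.2% were called higher in replicate 1, 7.87% higher in replicate 2 and 53% in either direction. The 9 genes had a median log2 ratio (replicate 1 over replicate 2) of 0.53, and all 445 genes one of 0.27. All 9 genes were among those tested. Such a test sets 1 library against the other and says nothing of conditions, and it treats each read as a separate molecule. In pooled tissue, fewer cells of a type and less RNA per cell cannot be told apart.

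Mirlet7c-2 had the largest ratio, 1.82-fold (exact binomial adjusted p = 0.000165), on only 115 against 69 counts. Whether it exceeded the ratios of the other genes was not tested. Mirlet7d followed at 1.64-fold (exact binomial adjusted p = 9.56e-109), Mirlet7a-1 1.56-fold (0.00123) and Mirlet7b 1.44-fold (1.81e-10). Mirlet7i was 1.45-fold higher, with an adjusted p too small to be represented. Mir98 was 1.22-fold higher (exact binomial adjusted p = 1.43e-12), Mirlet7f-2 1.18-fold (0.0186) and Mirlet7g 1.15-fold (1.45e-81). Mirlet7f-1 stood at 0.997-fold (exact binomial adjusted p = 1).

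**Figure D3:**
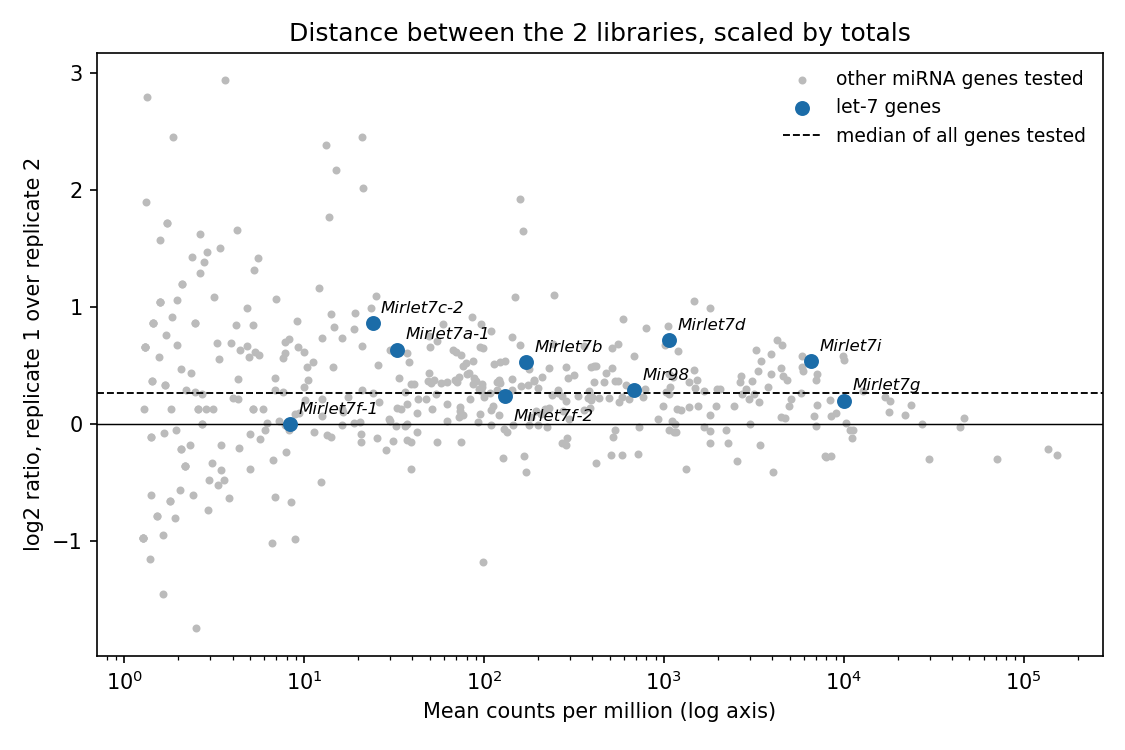
log2 ratio of replicate 1 over replicate 2 against mean CPM (log axis) for the 445 miRNA genes tested, with the let-7 genes named. The dashed line is the median of all genes tested, 0.27; Mirlet7i, Mirlet7d, Mirlet7b, Mirlet7a-1 and Mirlet7c-2 lie between 0.53 and 0.86.

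Several of these calls rested on the choice of library scaling. Scaling by the trimmed mean of M values (TMM) moved every log2 ratio by -0.28, after which the median gene stood at -0.01. Under TMM, 5 of the 9 genes were called, against 40.2% of all genes tested. Mirlet7i (log2 ratio 0.25), Mirlet7d (0.44), Mirlet7b (0.24) and Mirlet7c-2 (0.58) were higher in replicate 1, which 18.9% of all genes were. Mirlet7g was higher in replicate 2, at a log2 ratio of -0.08 (exact binomial adjusted p = 1.45e-14 with TMM), as were 21.3% of all genes. The calls of Mir98, Mirlet7f-2 and Mirlet7a-1 were lost. DESeq2's size factors, and totals without the 10 most abundant genes, also gave 5 calls each among the 9, against 40.9% and 41.3% of all genes. With size factors these were the genes called under TMM, in the same directions. Without the 10 most abundant genes all 5 were higher in replicate 1, and they included Mirlet7a-1 but not Mirlet7g. Mirlet7i, Mirlet7d, Mirlet7b and Mirlet7c-2 passed toward replicate 1 under all 4 scalings tried. Mirlet7g passed toward replicate 1 with library totals and toward replicate 2 with TMM and size factors. It did not pass without the 10 most abundant genes. With reads on either strand 8 of the 9 genes passed, against 54% of all genes. With the own strand of Gm24111, and with a minimum of 100 summed counts, all 8 genes left in the test passed, against 53.2% and 74.8%. A minimum of 1 summed count gave 8 of 9 against 31.6%.

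**Figure D4:**
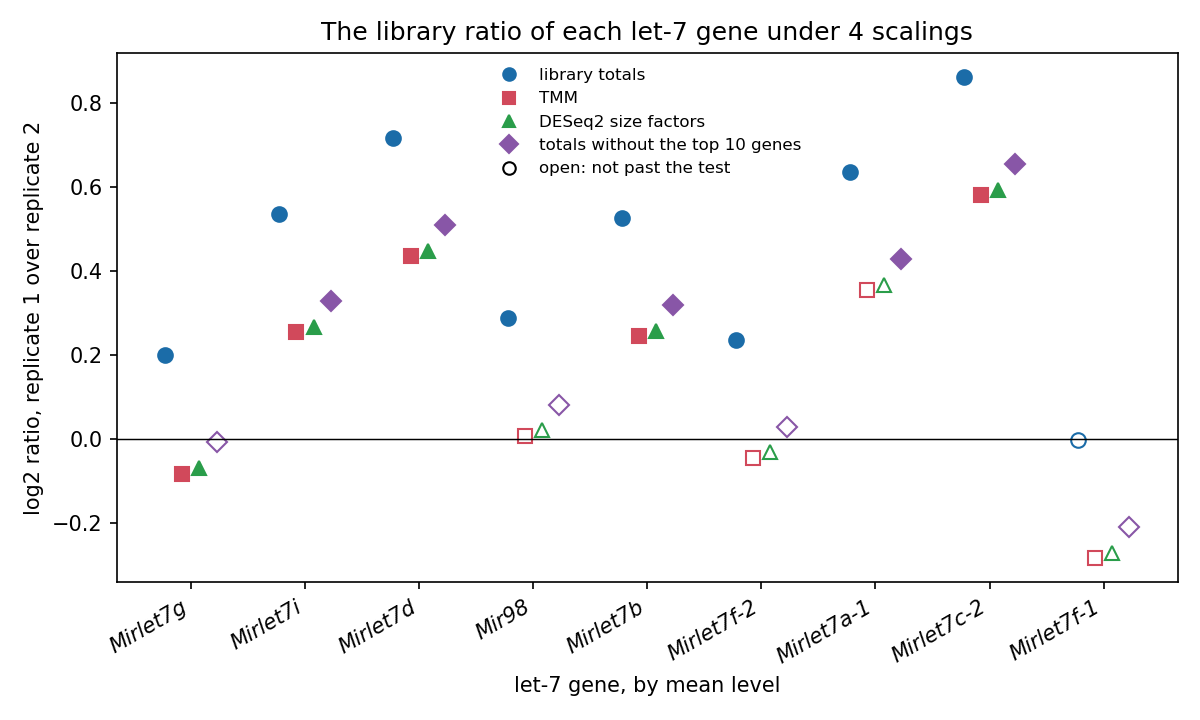
log2 ratio of replicate 1 over replicate 2 for each let-7 gene under 4 scalings of the libraries, with open symbols where the gene did not pass the exact binomial test. Mirlet7i, Mirlet7d, Mirlet7b and Mirlet7c-2 keep filled symbols above 0, and Mirlet7g moves from 0.20 with library totals to -0.08 with TMM.

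Other features of the libraries also differed between the replicates. Unmapped reads were 24.5% of replicate 1 and 15.2% of replicate 2. Markers of endothelium, muscle, blood, liver and mesenchyme, 10 genes in all and none of them at 0 counts, summed to 4.55% and 3.70% of counts. Of these 10 markers 8 were called higher in replicate 1 with library totals, beside 45.2% of all genes tested. With TMM 4 were higher in replicate 1, beside 18.9% of all genes, and 1 in replicate 2, beside 21.3%. Of 13 neural markers listed, 12 had a row used here. They summed to 1.06% and 0.921%. With library totals 6 of the 12 were called higher in replicate 1, a share near the 45.2% of all genes, and with TMM 2 were higher in replicate 1 and 3 in replicate 2. They were led by Mir92b, a miRNA of neural progenitors, at 4979 ± 383 CPM (SD, n = 2). The lowest were Mir124a-3, Mir9-2, Mir124a-1 and Mir124a-2, at mean levels of 1.56, 2.31, 2.46 and 10.5 CPM. Whether these 4, or any other marker of either list, lack reads that mapped to several places was not analysed. The sums of the neural and the other markers therefore do not give the relative amounts of these cell types. Reads of the listed neural markers were thus present at widely different levels, beside those of other cell types such as the endothelial Mir126a at 23624 ± 1869 CPM. The part of these features in the let-7 differences was not tested.

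Among related genes, Mirlet7e of the miR-99 clusters, read from the strand opposite Gm25927, was at 3914 and 2698 CPM, below Mirlet7i and above Mirlet7d. Mirlet7a-2 (89.8 and 59.7 CPM) and Mirlet7c-1 (108 and 87.0 CPM), whose 5′ strands are those of Mirlet7a-1 and Mirlet7c-2, lay in the range of the genes with a shared strand. The lin-4 relatives act beside let-7 in developmental timing. Mir125a was at 5286 and 3210 CPM, Mir125b-1 at 1199 and 962 CPM, and Mir125b-2 at 721 and 732 CPM. Whether these 3 genes lack reads that mapped to several places was not analysed, so their counts per hairpin do not rank the mature strands. With library totals, 2 of these 3 were called higher in replicate 1 (45.2% of all genes), Mir125a by 1.65-fold and Mir125b-1 by 1.25-fold, and Mir125b-2 did not pass. With TMM, Mir125a was higher in replicate 1 (log2 ratio 0.44), Mir125b-1 did not pass (0.04) and Mir125b-2 was higher in replicate 2 (-0.30). The other annotated mature strands with the seed GAGGUAG belong to Mir1961 and Mir7k, both with 0 counts in each library. No read at this depth sets an upper limit of 3 counts, or 0.809 CPM in the first library and 0.740 CPM in the second.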

How the data were processed

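The authors deposited raw read counts per miRNA gene for mm10, per the file headers and labels. The 3 unnamed count columns were read as reads on either strand, the own strand and the opposite strand. The first was the sum of the others in all 1973 rows. The column taken as the own strand held 3708662 counts in replicate 1 and 4055883 in replicate 2. The column taken as the opposite strand held 78467 and 68621. Any trimming, as well as the aligner and counter, was not given in the sources used here. Reads that named no gene stood in rows of their own and formed 56.5% (replicate 1) and 47.0% (replicate 2) of 8530505 and 7655421 reads. Reads mapped to several places (25.2% and 27.3%) were among them. The total was the sum of own-strand counts with Gm24111 replaced by its opposite strand. Identifiers were matched to GENCODE (GRCm38) symbols for 1894 genes.

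The libraries were compared by the exact binomial test given their totals, with an adjusted p threshold of 0.05 and a pseudocount of 0.5 counts in log2 ratios. The test was tried on simulated counts that held counting noise only. That trial had no further spread between pools and no PCR copies, so it cannot show how the test behaves with them. Scaling factors over the 445 tested genes were computed with edgeR 4.0.16 (TMM) and with DESeq2 1.42.0 (size factors), in R 4.3.3. Other values used Python 3.11.15 with scipy 1.17.1. Sequences and their copies came from RefSeq (GRCm38.p6), where all 9 genes matched. Copies were searched among annotated hairpins only. The loop of 1 gene is not reported here. Named genes were the members, the let-7 genes of the miR-99 clusters, the lin-4 relatives, other carriers of the seed, the neighbours in rank of the leading member and a list of tissue markers. The members, lists and tests were chosen with earlier results of these data known. Counts with no molecular identifier stated may hold PCR copies, which make p-values too small.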

Additional observations from a re-analysis of the deposited data

Results flagged for a closer look

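Mirlet7b had 6 reads on its opposite strand in replicate 1, a strand used for this gene only where reads on either strand were counted, and on which a count of 0 would allow up to 3. Replicate 2 had 2 such reads.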

How the results depend on the processing

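No paired analysis was possible because there is a single group. Of the 9 let-7 genes, 8 passed the library test with totals. The number was 5 with TMM, 5 with DESeq2's size factors and 5 with totals that leave out the 10 most abundant genes. It was 8 with reads on either strand, with own-strand reads of Gm24111 and with a minimum of 1 or 100 summed counts. The log2 ratio of Mirlet7g changed sign, to -0.082 with TMM, -0.069 with DESeq2's size factors and -0.0079 without the 10 most abundant genes, where it did not pass. That of Mirlet7f-2 became -0.045 with TMM and -0.031 with DESeq2's size factors. These shifts follow from the scaling itself, which moves all genes alike. Over all genes, 236 were called with totals, 179 with TMM (84 higher in replicate 1 and 95 in replicate 2), 182 with size factors (87 and 95) and 184 without the 10 most abundant genes (110 and 74), against 201 and 35 with totals. The share of counts held by the 9 genes was 1.64% without replicate 1 and 2.10% without replicate 2. It was 1.84% with reads on either strand, 1.85% over genes with a 5′ strand of their own and 1.12% of all mapped reads, where the larger denominator lowers it. Reads mapped to several places limit what the counts say of Mirlet7a-1, Mirlet7c-2, Mirlet7f-1 and Mirlet7f-2.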
